A study of Mus musculus with 80 samples.

Results

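Wfdc18, Nmbr and Ccn5 (older symbol Wisp2) were 3 of the 11381 genes measured above a detection filter in the hippocampus of mice with kainate-induced mesial temporal lobe epilepsy. They were chosen by their measured log2 values, which rose strongly at days 28 and 60 on the injected side in the authors' normalized table, so those rises are given below as a description with no test. Each gene had 1 of the 21244 probes of the array, and all 3 probes passed the filter, which asked for a detection p-value under 0.05 on at least 4 arrays. Ccn5 passed it through the injected-side kainate arrays, since only 3 of the 28 arrays that detected it lay outside those groups. Wfdc18 was detected on 53 and Nmbr on 61 of the 80 arrays.

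Male C57Bl/6J mice, 12 weeks old at surgery, received either 50 nl of 20 mM kainic acid (KA) or the same volume of saline (sham) in the right dorsal hippocampus. Both hippocampi were taken 7, 28 or 60 days later, the injected one (ipsilateral, IL) and the other (contralateral, CL), and each was read on 1 Illumina expression BeadChip array, which gives 80 arrays from 40 animals. There were 8, 9 and 9 KA animals and 4, 5 and 5 sham animals at days 7, 28 and 60. All groups were unmodified animals of 1 strain and sex that had undergone the injection surgery, and no group was left without it. In whole tissue, fewer cells of a type and less RNA per cell cannot be told apart.

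Wfdc18 encodes a small secreted protein of the whey acidic protein (WAP) four-disulfide core family, many members of which inhibit proteases. Mouse mammary gland work named it extracellular proteinase inhibitor. Nmbr encodes the receptor for neuromedin B, a bombesin-like peptide, and couples to Gq proteins that activate phospholipase C and release calcium from stores. Ccn5 encodes a secreted matricellular protein of the CCN family, first found as a Wnt-induced gene, and lacks the carboxy-terminal cystine knot domain of its relatives. Intrahippocampal kainate is widely used as a model of temporal lobe epilepsy with neuron loss, gliosis and granule cell dispersion around the injection.

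In the RefSeq annotation of GRCm38.p6, Wfdc18 lies at chr11:83709004-83711360, Nmbr at chr10:14759356-14771458 and Ccn5 at chr2:163820752-163833146. RefSeq promoter windows of GRCm38.p6, from 250 bases before to 50 bases after the transcript start, were matched for Wfdc18 (chr11:83708754-83709053, plus strand) and Nmbr (chr10:14759697-14759996, plus strand). The Wfdc18 window begins before the annotated span of its gene. The Nmbr window lies wholly inside the annotated span of its gene, so its transcript start is not the gene's first base. Ccn5 was not matched. Wfdc18 and Nmbr are shown since their levels ran together in the late arrays described below, and capitals mark the motif matches.

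Wfdc18: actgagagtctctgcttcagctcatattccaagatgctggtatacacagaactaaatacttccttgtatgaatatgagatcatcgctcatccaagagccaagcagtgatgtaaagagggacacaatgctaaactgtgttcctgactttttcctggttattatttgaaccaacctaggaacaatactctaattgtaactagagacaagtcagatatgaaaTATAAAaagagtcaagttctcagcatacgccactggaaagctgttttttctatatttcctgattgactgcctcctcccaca

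Nmbr: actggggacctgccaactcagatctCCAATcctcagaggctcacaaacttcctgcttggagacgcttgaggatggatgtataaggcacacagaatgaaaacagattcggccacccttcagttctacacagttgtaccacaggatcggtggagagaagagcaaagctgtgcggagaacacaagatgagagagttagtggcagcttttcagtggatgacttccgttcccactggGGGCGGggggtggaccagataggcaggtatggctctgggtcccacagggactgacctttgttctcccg

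The Wfdc18 window held the TATA box letters TATAAA at bases 220 to 225, 31 bases upstream of the start (offset -31), and 39% of its bases were G or C. TATAAA was present on either strand in 13.6% of 32851 mouse promoter windows of this length. The Nmbr window held CCAAT at bases 26 to 30, found in 37.4% of windows, and GGGCGG at bases 233 to 238, found in 35.7%. Its GC content was 53.7%, against a median of 52.7% over all windows. The other letters searched on both strands were TGANTCA (AP-1), TGACGTCA and its shorter core TGACG (CRE), CTTTGAT (TCF/LEF) and TTCNNNGAA (STAT). None of these was in either window, and no motif matched both windows.

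Between 46.8% and 66.9% of the probes were detected per array (mean 61.3%). In the authors' log2 table every array had the same distribution to within 0.0112, so depth differences are visible only in the deposited intensities, whose array medians ran from 17.3 to 70.0. Of 10 hippocampal neuron markers, 6 were tested and all 6, including Prox1 and Spink8, were detected on all 80 arrays, while Neurod6 and Neurod1 were detected on 3 and 2. Slide 9 had the lowest detection. On 5 of its 7 arrays fewer probes were detected (46.8% at the lowest) than on any array of the other 10 slides (54.7% or more), and it held 2 injected-side sham arrays of day 28 and 1 of day 60. Values without this slide come from a fit added after seeing the data. Arrays are named by the replicate number of their group, which marks different mice on the 2 sides. A further array, injected-side KA replicate 8 of day 7, stood apart by its glial markers, and also by the neuropeptide genes Cartpt and Trh given below. Its 7 reactive astrocyte markers summed to 2639 on the linear scale against 12151 to 22200 in the other 7 arrays of its group, and its 8 microglia and macrophage markers to 1841 against 12253 to 18700. Day 7 values without this array follow the values with it.

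Wfdc18 was near the detection limit everywhere except on the injected side of KA animals at days 28 and 60. The injected-side sham levels at day 28 were 5.50, 5.76, 5.96, 6.04 and 6.05 on the log2 scale, and those of day 60 were 5.38, 5.96, 6.07, 6.08 and 6.10. In KA animals the lowest, median and highest injected-side levels were 6.37, 8.09 and 8.95 at day 28. At day 60 they were 6.93, 8.75 and 9.23. All 9 KA arrays of each of these days lay above every sham array of the day, with the lowest KA array at 6.37 and the next at 7.20 at day 28, and at 6.93 and 7.96 at day 60. The KA minus sham difference was 2.04 ± 0.23 (SE) at day 28 and 2.52 ± 0.23 at day 60, the 19th and the 5th highest of the 11381 genes.

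Nmbr had its highest levels at day 60. Injected-side sham levels were 5.10, 5.98, 6.00, 6.16 and 6.27 at day 28 and 5.57, 5.69, 6.03, 6.15 and 6.77 at day 60. The KA levels had a lowest, median and highest value of 6.21, 7.05 and 7.62 at day 28 and of 6.87, 8.46 and 8.92 at day 60. At day 28, 8 of 9 KA arrays exceeded every sham array, and at day 60 all 9 did. The difference was 1.13 ± 0.22 (SE) at day 28, rank 118 of 11381, and 2.21 ± 0.22 at day 60, rank 9. All but 1 of the day 60 KA arrays were above the highest day 28 KA array of this receptor.

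Ccn5 took the opposite order of the days. No injected-side sham array of day 7 or day 28 detected it, and 1 of 5 did at day 60. The sham levels, at background, were 5.33, 5.43, 5.58, 5.64 and 5.71 at day 28 and 5.28, 5.48, 5.53, 5.84 and 5.97 at day 60. The KA arrays had a lowest, median and highest level of 7.06, 7.52 and 9.16 at day 28 and of 6.31, 6.97 and 8.00 at day 60. Every KA array of both days detected the gene and lay above every sham array. Since the day 28 sham group was not above background, its level is only bounded, and Ccn5 was at least 3.41-fold higher in KA animals. The measured means differed by 2.18 ± 0.21 (SE) at day 28 and by 1.33 ± 0.21 at day 60, where 4 of the 5 sham arrays were at background too. The floor behind that bound is, per array, the higher of the lowest detected signal and the probe's own.

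For orientation, every KA array lay above every sham array on the injected side for 2.14% of genes at day 28 and 1.93% at day 60. In limma's test at adjusted p under 0.05, 5.83% of genes passed at day 28 and 4.51% at day 60. The 3 genes were chosen in these contrasts, so nothing is read from either figure. The size of the differences depended on the values used. Over all alternatives, left-out arrays included, they ran from 0.88 to 5.15 at day 28 and from 1.20 to 4.51 at day 60. The highest came from median-scaled intensities. Deposited intensities go below 0, such as -9.4 for Nmbr in injected-side sham replicate 4 of day 28. In median scaling, values under 1 were set to 1 before the log2.

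**Figure D1:**
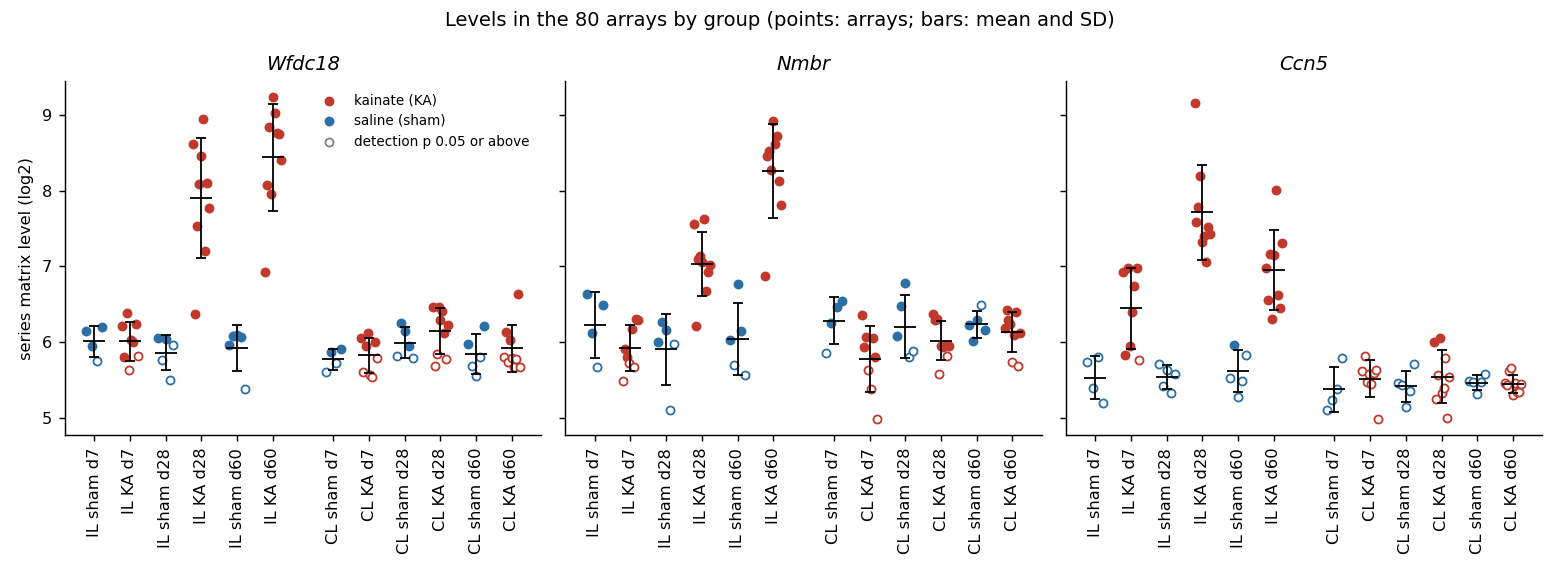
Log2 levels of Wfdc18, Nmbr and Ccn5 in the authors' normalized table (vertical axis) in the 12 groups, with 1 point per array and bars for mean and SD; open points are arrays with a detection p-value of 0.05 or above. The injected-side KA groups of days 28 and 60 stand above the rest for all 3 genes, and Ccn5 is also raised at day 7.

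Ordered by group mean, Wfdc18 was highest in injected-side KA animals at day 60 (8.44 ± 0.70, SD, n = 9) and then at day 28 (7.90 ± 0.79, SD, n = 9). These 2 groups differed by less than their pooled SD of 0.75, and the other 10 groups had means from 5.77 to 6.14. Nmbr had 8.26 ± 0.62 (SD, n = 9) at day 60 and 7.03 ± 0.43 (SD, n = 9) at day 28, a gap larger than their pooled SD of 0.53. Its other 10 group means ran from 5.78 to 6.28. Ccn5 ran from 7.72 ± 0.63 (SD, n = 9) at day 28 through 6.95 ± 0.53 (SD, n = 9) at day 60 to 6.44 ± 0.53 (SD, n = 8) at day 7, and then to 9 groups between 5.38 and 5.62. The day 60 and day 7 means of Ccn5 differed by 0.50, less than their pooled SD of 0.53. Among the remaining groups of each gene, every step between neighbours was smaller than the pooled SD of the pair.

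Of the 18 late injected-side KA arrays, 17 had more Wfdc18 than any of the 62 other arrays, 16 had more Nmbr and 13 more Ccn5. For Ccn5 the overlap came from its day 7 KA arrays, which reached 6.98. No gene of the 11381 had all 18 above all 62 (0.0%), a stricter criterion that Wfdc18, Nmbr and Ccn5 did not meet either. The share of all genes that reached 17, 16 or 13 of the 18 was not computed. Wfdc18, Nmbr and Ccn5 were chosen for their rise in these late arrays, so nothing is read from their counts.

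Slides held several groups, so differences could also be taken within a slide. On the injected side, 2 slides at day 28 gave Wfdc18 differences of 2.57 and 2.91, Nmbr differences of 1.46 and 1.55 and Ccn5 differences of 1.76 and 3.45. At day 60, 4 slides gave differences from 0.97 to 3.37 for Wfdc18, from 0.84 to 3.16 for Nmbr and from 0.34 to 2.30 for Ccn5. All of these were above 0, but each rested on 1 sham array and 1 or 2 KA arrays. The highest day 60 values of Wfdc18 and Nmbr came from slide 9, whose injected-side sham array of that day, replicate 5, detected neither gene. Without slide 9, the differences of Wfdc18, Nmbr and Ccn5 were 1.94, 0.88 and 2.14 at day 28 and 2.35, 2.04 and 1.42 at day 60.

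Day 7 asked whether the 3 genes had already changed when the early response to kainate was under way. These arrays were not used to choose the genes, although the word late in the description of the set implies that day 7 values had been seen. Ccn5 rose already at day 7, and Wfdc18 and Nmbr did not pass the test. The injected-side Ccn5 levels were 5.20, 5.40, 5.74 and 5.80 in sham animals, none detected, and ran from 5.76 through a median of 6.57 to 6.98 in KA animals. All KA arrays except replicate 8 exceeded every sham array. The measured means differed by 0.91 ± 0.23 (SE) with a limma adjusted p of 0.00361 over 11381 genes, and the bounded change was at least 1.54-fold. Ccn5 had passed the detection filter mainly through injected-side KA arrays, and 7 of the 8 KA arrays of this test detected it. The filter was thus not independent of the groups compared, which limits this p-value. The call held under all 9 alternatives that gave a value (limma adjusted p up to 0.0154), while the stricter filter removed the gene. Without KA replicate 8 the difference was 1.01 (limma adjusted p = 0.00082). With all arrays, the difference within 3 slides ran from 0.37 to 1.19, each from 1 sham array and 1 or 2 KA arrays.

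At that day 10.4% of all genes passed the limma test, and 7.4% of all genes passed as higher in KA, so 1 of 3 is a small count to read against the background. Wfdc18 levels ran from 5.63 to 6.38 in KA animals and were 5.75, 5.96, 6.14 and 6.20 in sham animals. The groups lay on top of each other, with a difference of -0.00 ± 0.26 (SE), a 95% interval from -0.51 to 0.51 and a limma adjusted p of 0.9996. Nmbr ran from 5.48 to 6.31 in KA animals and stood at 5.67, 6.12, 6.49 and 6.64 in sham animals. Its difference of -0.31 ± 0.24 (SE) had a 95% interval from -0.79 to 0.17 and a limma adjusted p of 0.539. Without KA replicate 8 the differences were 0.03 for Wfdc18 and -0.36 for Nmbr (limma adjusted p = 0.977 and 0.416).

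On the uninjected side neither Wfdc18 nor Nmbr passed the test at any day, where 1.47%, 0.0967% and 0.0527% of genes passed at days 7, 28 and 60. Wfdc18 differences were 0.05, 0.15 and 0.07 at the 3 days, each with an SE of 0.23 to 0.26 (lowest limma adjusted p 0.865). The widest of the 95% intervals went from -0.46 to 0.57. Ccn5 was detected on 2 of the 40 uninjected-side arrays, both from KA animals at day 28, so no difference between groups is read for it on this side. Nmbr had lower means in KA animals at each day, by -0.50, -0.18 and -0.10. At day 7 the uninjected-side Nmbr levels were 5.85, 6.26, 6.47 and 6.55 in sham animals and ran from 4.99 through a median of 5.87 to 6.36 in KA animals. There, 4 of 8 KA arrays lay below every sham array, the 95% interval was -0.98 to -0.02, and the unadjusted p of 0.0397 became 0.529 after limma's adjustment over all genes. The 2 slides with both groups, with 1 or 2 arrays of each, gave -0.46 and 0.30, which differ in sign.

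The change of the uninjected-side KA effect from day 7 to day 28 or 60 was also tested. No gene passed (0.0% in both tests), with 1109 and 729 genes at an unadjusted limma p under 0.05 and neither Wfdc18 nor Nmbr among them (lowest unadjusted p 0.224, for Nmbr at day 60).

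**Figure D2:**
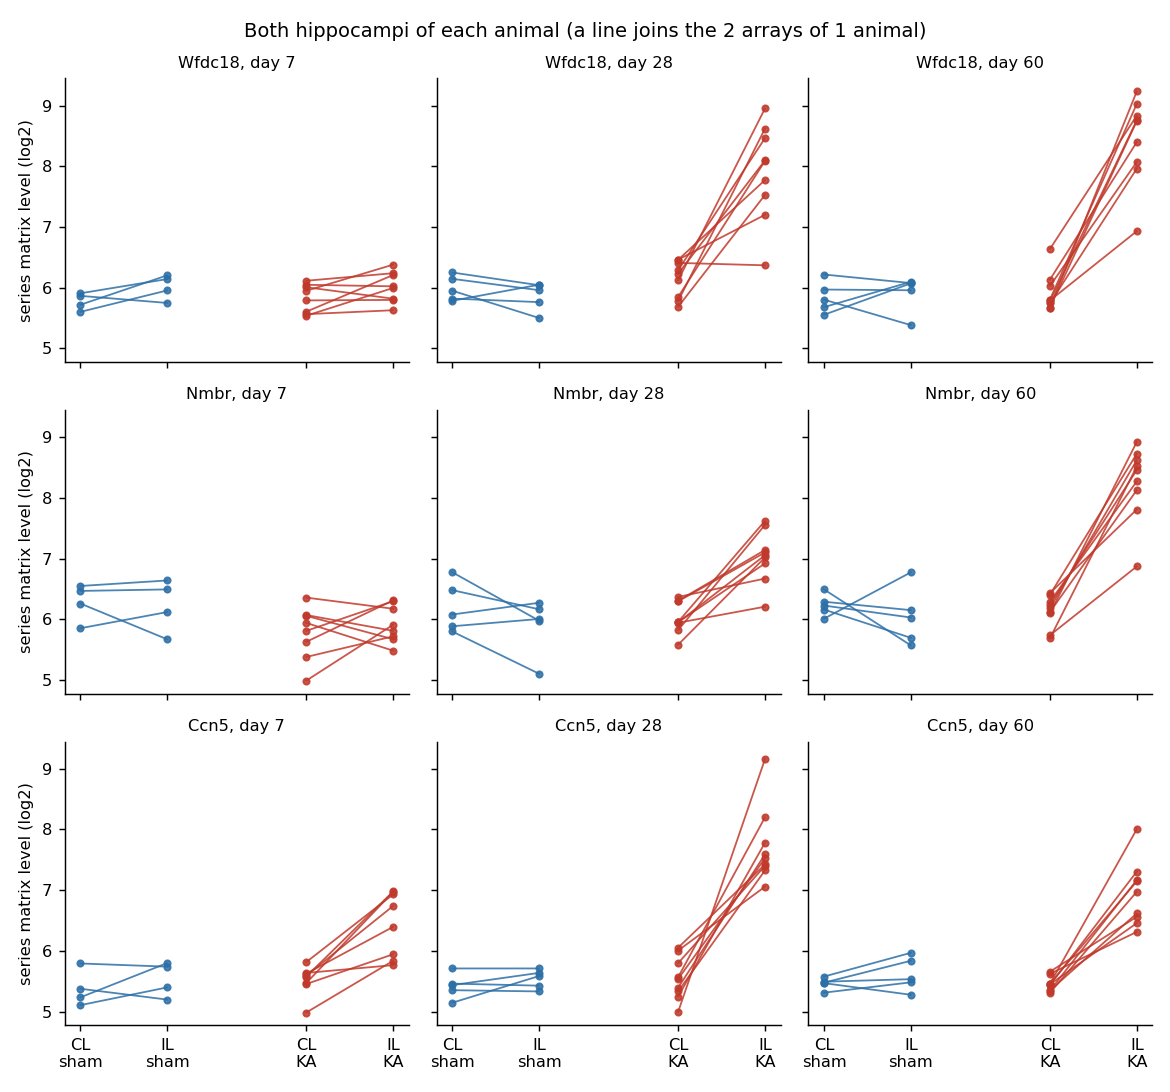
Log2 levels of the 3 genes in both hippocampi of each of the 40 animals (vertical axis; CL uninjected, IL injected; a line joins the arrays of 1 animal), by day and treatment. KA lines climb at days 28 and 60 for all genes, except Wfdc18 in 1 animal at day 28, and at day 7 for Ccn5, while sham lines go both ways.

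Within an animal, the injected hippocampus had the higher Ccn5 level in 8 of 8, 9 of 9 and 9 of 9 KA animals at days 7, 28 and 60. The mean differences were 0.93 ± 0.46, 2.17 ± 0.91 and 1.50 ± 0.58 (SD). The uninjected side of these animals was at background for Ccn5, except on 2 of 9 arrays at day 28. For Wfdc18 the injected side was higher in 6 of 8, 8 of 9 and 9 of 9 KA animals, by means of 0.18 ± 0.28, 1.76 ± 0.95 and 2.52 ± 0.75 (SD). For Nmbr the counts were 4 of 8, 9 of 9 and 9 of 9, with means of 0.14 ± 0.53, 1.01 ± 0.53 and 2.13 ± 0.58 (SD). Without the animal of the injected-side array that stood apart, the day 7 counts were 7 of 7 for Ccn5, 6 of 7 for Wfdc18 and 3 of 7 for Nmbr. The injected side was above the uninjected side in every KA animal for 2.39%, 3.36% and 1.88% of all genes at the 3 days. Sham animals had no common direction, with mean differences between -0.30 and 0.24 over the 3 genes and days.

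At day 7 the difference of the KA effect between hemispheres was tested directly. For Ccn5 it was 0.77 ± 0.31 (SE), with an unadjusted p of 0.0167 and a limma adjusted p of 0.881. The uninjected-side arrays in this test did not detect the gene. In this test 3 genes passed (0.0264%), so a difference between sides was not shown for Ccn5 at day 7. The values for Wfdc18 and Nmbr were -0.05 ± 0.35 and 0.19 ± 0.33 (SE), each with a limma adjusted p of 0.99996. Without injected-side KA replicate 8 the values were 0.87 for Ccn5 (limma adjusted p = 0.272), -0.03 for Wfdc18 and 0.14 for Nmbr, and 106 genes passed.

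How the 3 genes varied among KA animals of 1 group was not used to choose them. Wfdc18 and Nmbr were high and low in the same injected hippocampi. At day 28, Pearson's r was 0.92 (exact permutation p = 0.000529, adjusted over 6 relations 0.00317) and Spearman's rho 0.78 (exact p = 0.0172, adjusted 0.0517, n = 9). At day 60, r was 0.86 (exact p = 0.00846, adjusted 0.0254) and rho 0.82 (exact p = 0.0108, adjusted 0.0517, n = 9). Without the 2 animals farthest from the median of Wfdc18, the 2 lowest at either day, r was 0.75 at day 28 (exact p = 0.0573, n = 7) and 0.58 at day 60 (exact p = 0.166, n = 7). Leaving out the lowest alone, replicate 1, took the day 60 value to 0.56 (exact p = 0.145, n = 8), so that relation rested on 1 array. At day 28 the value without the lowest, replicate 2, was 0.84 (exact p = 0.009995, n = 8).

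No relation with Ccn5 passed the test. Its r with Wfdc18 was 0.31 at day 28 and 0.34 at day 60, and its r with Nmbr was 0.46 and 0.07 (exact permutation p from 0.217 to 0.834, lowest adjusted 0.434, n = 9). Without the 2 animals farthest from the median, r of Nmbr and Ccn5 at day 28 was 0.93 (exact p = 0.00258, n = 7), so this relation changed with 2 animals. Arrays of a day came from several slides, and the part of slides in these relations was not tested.

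**Figure D3:**
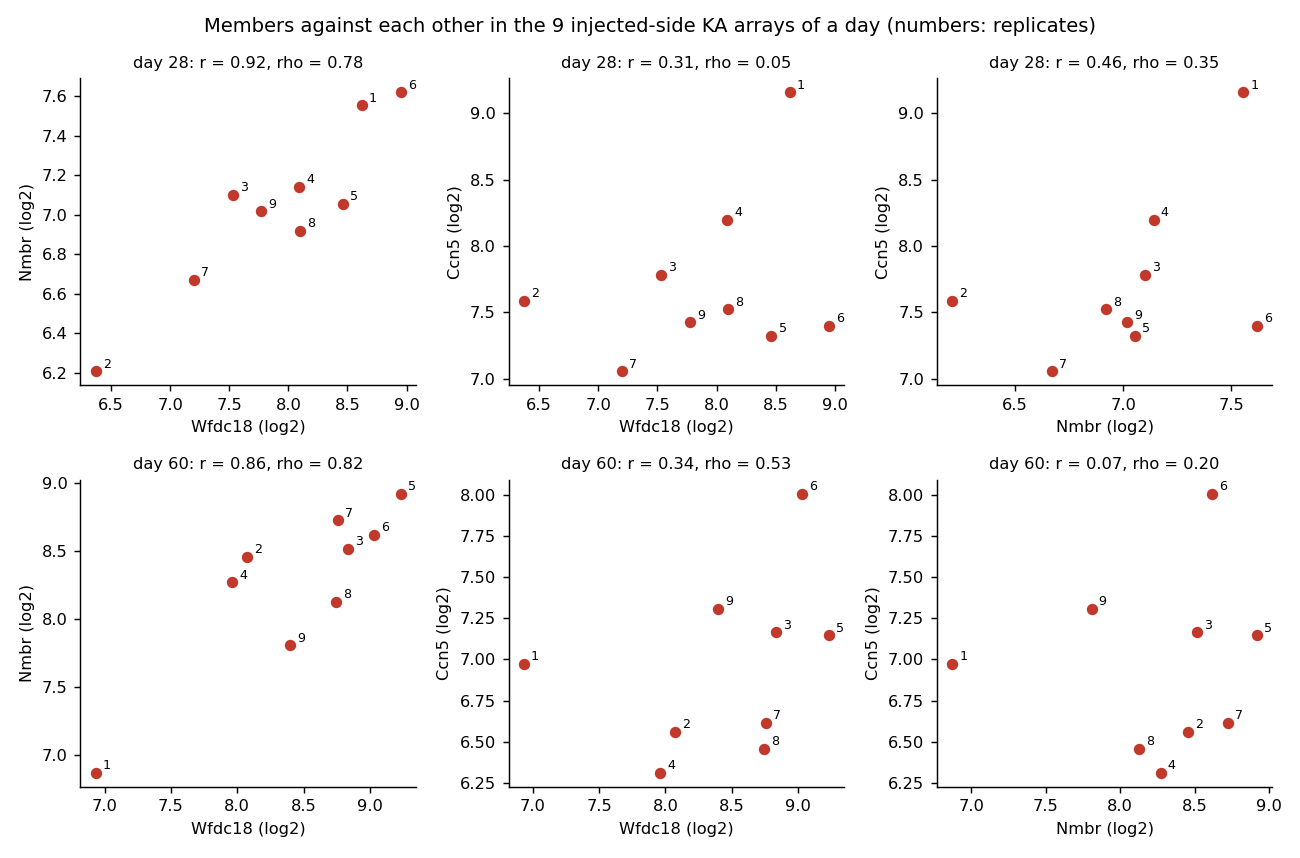
Log2 levels of each pair of genes in the 9 injected-side KA arrays of day 28 (top) and day 60 (bottom); numbers are the replicates. Wfdc18 and Nmbr line up, with replicate 2 at day 28 and replicate 1 at day 60 lowest in both, whereas these animals are in the middle of the Ccn5 range.

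Injected-side KA replicate 2 of day 28 had the lowest Wfdc18 (6.37) and Nmbr (6.21) of its 9 animals, with Ccn5 at 7.59, above 5 of the other 8. Injected-side KA replicate 1 of day 60 had likewise the lowest Wfdc18 (6.93) and Nmbr (6.87), with Ccn5 at 6.97, above 4 of the other 8. Both animals were looked at after their values were seen. Gfap, the astrocyte filament gene, was not lowest in either: 10.2 against 9.77 to 10.6 at day 28, and 9.55 against 9.14 to 11.3 at day 60. The summed microglia and macrophage markers were 4428 against 4151 to 13690 at day 28, and 6344 against 2707 to 8258 at day 60. In injected-side KA replicate 8 of day 7, whose glial markers were near sham levels, Ccn5 was the lowest of its group (5.76) and Nmbr the second highest (6.30).

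The families of the 3 genes were then examined. Of 23 WAP family genes listed, 17 had a probe and 8 passed the filter. Wfdc17, a secreted WAP protein known from mouse macrophages, rose on the injected side at day 7 by 1.38 ± 0.23 (SE, limma adjusted p = 5.05e-06), from levels of 5.34 to 5.88 in sham animals to 5.48 to 7.76 in KA animals. Without KA replicate 8 the rise was 1.59 (limma adjusted p = 5.79e-09). Wfdc17 was detected on only 19 arrays of the series, and the stricter filter removed it. The detection filter may thus not have been independent of the groups compared, which limits these p-values. No bounded change was computed for this gene. At days 28 and 60 Wfdc17 did not pass, with medians of 5.82 and 5.51 in KA animals. Leaving aside Wfdc18, none of the other 6 passed on the injected side at any day. That left 1 of 7 at day 7, beside 10.4% of all genes passing. The median difference of the 7 was 0.03, 0.04 and 0.05 at days 7, 28 and 60 (all genes -0.04, -0.02 and -0.01). Slpi and Eppin, further protease inhibitors of the family, were detected on 2 arrays each.

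Neither ligand gene of the bombesin-like system passed the test on the injected side. Nmb, which encodes the ligand of the Nmbr receptor, was detected on 76 arrays at low level. Its KA minus sham differences were -0.09, -0.19 and -0.13 at days 7, 28 and 60 (limma adjusted p from 0.453 to 0.835). Grp, the gene of gastrin-releasing peptide, was detected on all 80 arrays and differed by -0.07, 0.30 and 0.24, with SEs from 0.43 to 0.48 and limma adjusted p-values from 0.775 to 0.972. The probes of the other 2 receptors gave almost no signal, since Grpr was detected on 0 arrays and Brs3 on 2. Of 12 listed genes of Gq signalling, 10 were tested. At day 7, 3 rose, the phospholipase C genes Plcb2 (0.71 ± 0.18, SE) and Plcb3 (0.43 ± 0.12) and the inositol trisphosphate receptor gene Itpr2 (0.88 ± 0.18), with limma adjusted p-values from 0.000161 to 0.00966. That is 3 of 10 beside the 7.4% of all genes that were higher at this day. Without KA replicate 8 these values were 0.81, 0.48 and 1.01, and all 3 passed. Plcb3 also rose at day 28 by 0.41 ± 0.11 (SE, limma adjusted p = 0.0131), 1 of 10 beside 5.83% of all genes passing, and none passed at day 60, when 4.51% of all genes did. The Plcb3 calls were lost without 1 sham array, replicate 3 at day 7 (adjusted p = 0.0796) and replicate 4 at day 28 (adjusted p = 0.0918). The median difference over the 10 was 0.03, 0.10 and -0.03 at the 3 days.

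Of 6 CCN genes, 4 were tested. Beside Ccn5, 1 of 3 passed at day 7, 1 at day 28 and 2 at day 60, when 10.4%, 5.83% and 4.51% of all genes did. Ccn1, a matricellular protein gene induced early by injury and growth factors, rose on the injected side at day 7 by 0.82 ± 0.20 (SE, limma adjusted p = 0.00229) and at day 60 by 0.72 ± 0.18 (SE, adjusted p = 0.00776). No injected-side sham array of these days detected any of its 3 probes, so the changes were at least 1.34-fold and 1.21-fold. The day 7 value without KA replicate 8 was 0.89. At day 28 its difference was 0.57 ± 0.18 (SE, limma adjusted p = 0.0453), a call lost in 9 of 14 fits that left out 1 array (adjusted p up to 0.155) and with the mean of its probes. Ccn2, the connective tissue growth factor gene, rose at day 60 by 1.14 ± 0.31 (SE, limma adjusted p = 0.0152). Sham Ccn2 levels of day 60 spread from 8.17 to 10.8 against 10.3 to 11.2 in KA animals, and leaving out sham replicate 1, 4 or 5 ended the call (adjusted p up to 0.144). Ccn4, also a Wnt-induced gene, differed by 0.31, 0.30 and 0.32 at the 3 days and did not pass (limma adjusted p from 0.481 to 0.529). Of 12 Wnt target genes, 7 were tested. The cyclin D1 gene Ccnd1 rose at day 7 by 0.73 ± 0.20 (SE, limma adjusted p = 0.00931; 0.0594 without sham replicate 2; a rise of 0.83 without KA replicate 8), 1 of 7 beside 10.4% of all genes, and no target gene passed at day 28 or 60. Without slide 9, the calls of Plcb3 and Ccn1 at day 28 (limma adjusted p = 0.122 and 0.436) and of Ccn2 at day 60 (0.0906) were lost.

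**Figure D4:**
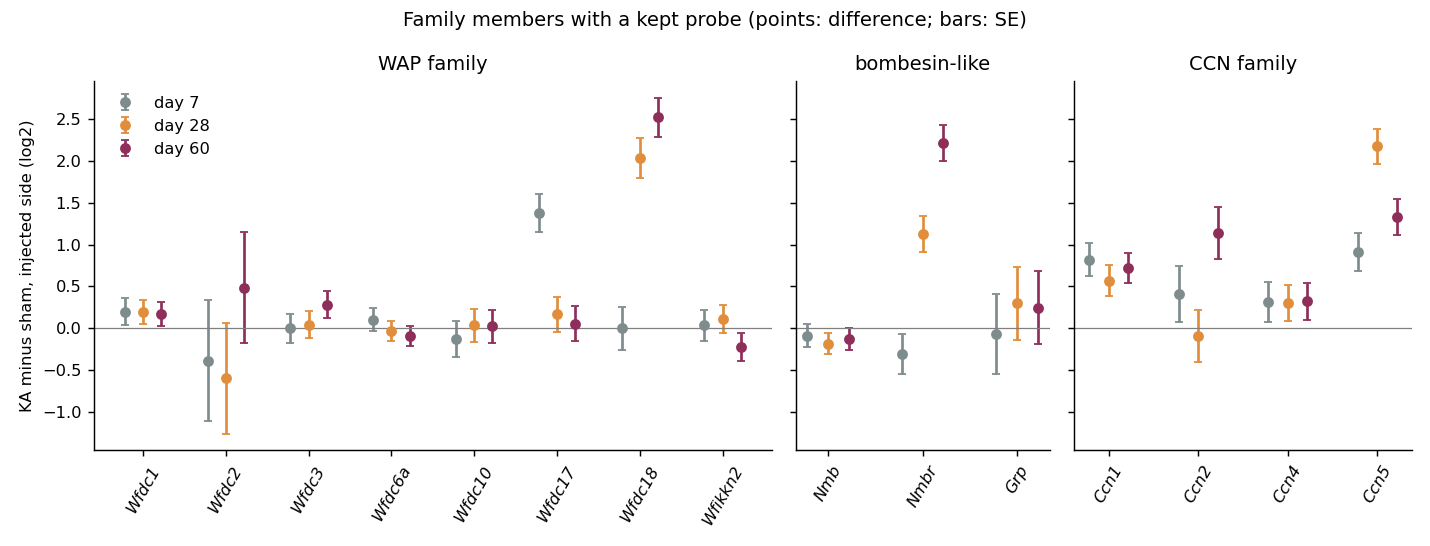
KA minus sham difference on the injected side (log2, vertical axis; bars are SE) for the tested genes of the WAP, bombesin-like and CCN families at days 7, 28 and 60. Wfdc18, Nmbr and Ccn5 have the highest values of their families at days 28 and 60, the contrasts in which they were chosen. The SE bars of Ccn5 and Ccn2 overlap at day 60. Wfdc17 is raised at day 7, and Ccn1 lies above 0 at each day.

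Glial markers were raised from day 7 on. All 7 tested reactive astrocyte markers were higher on the injected side at each day, with median differences of 2.31, 2.21 and 1.92, and 6 of 7 were higher on the uninjected side at day 7. Of 8 tested microglia and macrophage markers, 8, 7 and 3 rose on the injected side at days 7, 28 and 60, and 7 rose on the uninjected side at day 7. Of all genes, 10.4%, 5.83% and 4.51% passed on the injected side at these days, and 1.47% on the uninjected side at day 7. Without injected-side KA replicate 8 the day 7 medians of the 7 astrocyte and 8 microglia and macrophage markers were 2.64 and 2.85, and all of them passed. Without slide 9, 6 of 7 astrocyte and 2 of 8 microglia and macrophage markers passed at day 60. The astrocyte markers summed to 17231, 8190 and 6721 (medians of the KA groups, linear scale) at the 3 days on the injected side, against 2043, 1711 and 2100 in sham animals. On the uninjected side of KA animals at day 7 the sum had a median of 6444, where neither Wfdc18 nor Nmbr passed the test. The part of glial cells in the levels of Wfdc18, Nmbr and Ccn5 was not tested.

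CCN proteins are also known from fibroblasts and vessel cells. On the injected side 10.4%, 5.83% and 4.51% of all genes passed the limma test at days 7, 28 and 60. Single calls in the short marker lists below are small counts to read against this background. Of 7 tested fibroblast markers, 0, 0 and 1 rose on the injected side at days 7, 28 and 60, the 1 being Lum (0.62 ± 0.19, SE, limma adjusted p = 0.0453), and Col3a1 was detected on no array. The Lum call was lost in 9 of 14 fits that left out 1 array (adjusted p up to 0.219) and with no filter (0.0529). Their sum ranged from 3424 to 6792 in KA animals at day 28, when Ccn5 was highest, and from 1926 to 7987 in sham animals. None of 7 mural markers and none of 6 choroid plexus markers passed at any day, and of 5 endothelial markers only Tek did, at day 60 (0.55 ± 0.14, SE, adjusted p = 0.00911; 0.358 without sham replicate 5). Of 6 tested neuron markers, 1 passed at day 28, the granule cell gene Prox1, which rose by 0.88 ± 0.23 (SE, limma adjusted p = 0.0105), while the median of the 6 was -0.29 against -0.02 for all genes. None of the 6 passed at day 7 or 60. Without slide 9 the calls of Lum, Tek and Prox1 were lost (adjusted p = 0.235, 0.439 and 0.0938). Of 7 interneuron markers, Cort fell on the injected side at each day (-0.99, -1.03 and -0.93) and Npy rose at days 28 and 60 (1.13 and 1.10). Both also passed on the uninjected side at day 28, when 0.0967% of all genes did. Cort differed there by -0.97 and Npy by 1.04 (limma adjusted p = 0.0202 and 0.0403). The part of each of these cell types in the levels of the 3 genes was not tested.

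Genes with the most similar levels were found by Pearson's r over the 80 arrays, which share 12 groups, 40 animals and 11 slides, so r is a description. For Wfdc18 the 5 closest of 11380 genes were Abcb4 (0.90), a phospholipid transporter gene best known from liver, Nmbr (0.87), the proteoglycan gene Spock3 (0.86), Lgi2 (0.85), a secreted protein gene mutated in a canine epilepsy, and Brinp3 (0.82). For Nmbr they were Wfdc18 (0.87), Abcb4 (0.83), the orexin receptor gene Hcrtr1 (0.81), Aard (0.77) and Brinp3 (0.77). Wfdc18 and Nmbr were thus each other's second and first closest gene. Wfdc18, Nmbr and Ccn5 were all chosen for a rise in the late injected-side KA arrays, which are among the 80. That choice favours a high r between them, so nothing is read from their ranks for each other. For Ccn5 the list was different. The neuropeptide genes Cartpt (0.87) and Trh (0.85) led, followed by Chil1 (0.84), a chitinase-like protein gene of reactive glia and macrophages, Dennd2c (0.82) and Lgi2 (0.82). Ccn5 was 13th for Wfdc18 and 53rd for Nmbr.

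The likeness was also taken between groups and within them. Over the 12 group means r was 0.96 for Wfdc18 with Abcb4, 0.94 for Nmbr with Hcrtr1 and 0.97 for Ccn5 with Cartpt. Over the deviations of the 18 late injected-side KA arrays from their day's mean, Wfdc18 kept r of 0.81 with Abcb4 and 0.86 with Spock3, and Nmbr kept 0.87 with Hcrtr1. Ccn5 had 0.27 with Cartpt, 0.31 with Trh and 0.67 with Chil1. The 2 animals lowest in Wfdc18 and Nmbr were also the lowest of their groups in Abcb4 (7.25 and 7.74), Hcrtr1 (7.24 and 7.10), Spock3 (9.53 and 9.29) and Lgi2 (8.09 and 8.54). Of the genes closest to Ccn5, Cartpt was the lowest of its group in both as well, at 10.6 against 10.9 to 13.8 and at 10.4 against 10.7 to 12.3. Trh was the highest of its day 28 group in replicate 2, at 11.3 against 7.82 to 10.5, and in replicate 1 of day 60 above 3 of the other 8. In injected-side KA replicate 8 of day 7, Cartpt was at 6.93 against 8.87 to 13.3 in the other 7 arrays. Trh was at 5.87 there against 7.20 to 10.6. Hcrtr1 was above the other 7, at 6.93 against 6.20 to 6.88, and Abcb4, Spock3, Lgi2 and Brinp3 were within their range.

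**Figure D5:**
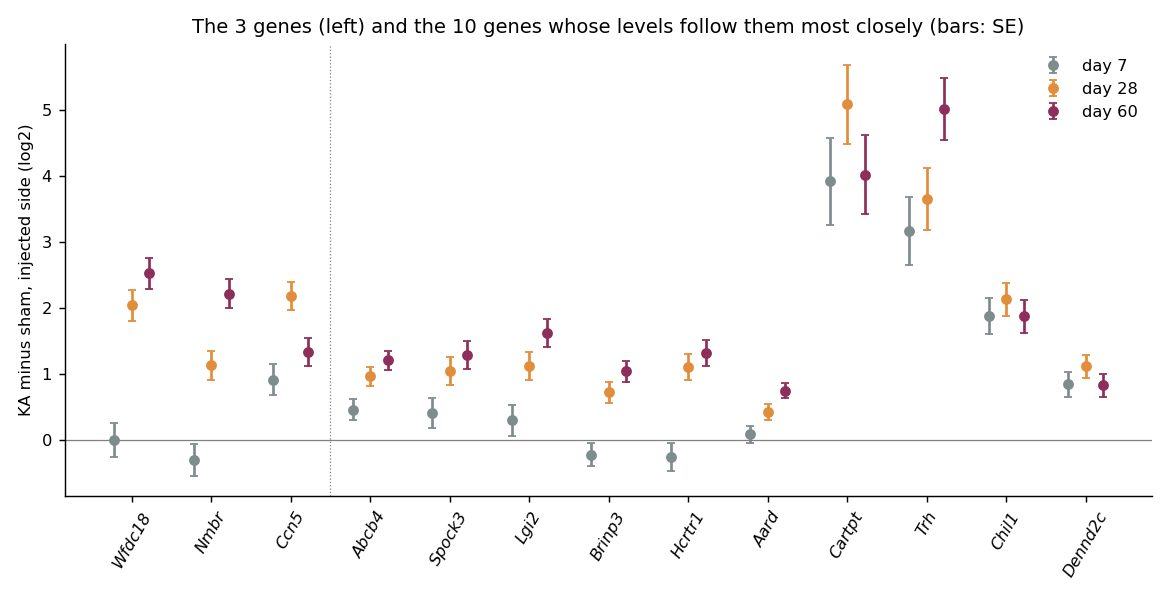
KA minus sham difference on the injected side (log2, vertical axis; bars are SE) at days 7, 28 and 60 for the 3 genes, left of the dotted line, and the 10 further genes with the highest r to them. The genes closest to Wfdc18 and Nmbr are highest at day 60. Cartpt, Chil1 and Dennd2c share with Ccn5 a raised day 7 value and a maximum at day 28, though their SE bars overlap between days. Trh and Lgi2, also close to Ccn5, are highest at day 60.

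The differences of these genes had the following course. Abcb4 differed by 0.46, 0.96 and 1.21 at days 7, 28 and 60, Spock3 by 0.41, 1.04 and 1.28 and Lgi2 by 0.29, 1.12 and 1.62. Their day 7 values (SE 0.16, 0.23 and 0.24) were above 0, where Wfdc18 was flat. Aard differed by 0.08, 0.42 and 0.74. Hcrtr1 differed by -0.26, 1.10 and 1.32 at days 7, 28 and 60, and Brinp3 by -0.22, 0.72 and 1.04. Cartpt differed by 3.92, 5.09 and 4.02, Chil1 by 1.88, 2.13 and 1.87 and Dennd2c by 0.84, 1.11 and 0.83. In each of them the SE ranges of the days overlapped (SE at day 28 of 0.60, 0.25 and 0.17). Trh went on to its highest difference at day 60, with 3.17, 3.64 and 5.02. These genes were selected for their likeness in the same arrays, so their course is a description.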

How the data were processed

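Total RNA of both hippocampi of 40 mice was read on Illumina BeadChips (80 arrays, 11 slides, 12 groups by hemisphere, treatment and day, from the sample titles). The series matrix holds log2 values processed by the authors, and all arrays had the same sorted values, as after quantile normalization. BeadStudio, GenomeStudio and Partek are named in the submitters' processing notes. The deposited intensity table gives linear, non-normalized intensities and a detection p-value per probe, per the file headers. Its last 4453 data lines repeat probes with values that matched another array in 70 of 80 columns and were left out. In 1 array the detection column was displaced and was moved back.

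The main values were the series matrix log2 values. Probe symbols came from the platform annotation (19889 of 21244 probes with 1 symbol, 1355 with none). A probe was kept with a detection p under 0.05 on at least 4 arrays (16646 kept), and the probe with the highest mean stood for a gene. limma 3.58.1 (R 4.3.3) fitted 12 group means with the animal as a random block (consensus correlation 0.0802), with Benjamini-Hochberg adjustment over 11381 genes, tested on simulated data. Correlations between members used exact permutation of pairings (scipy 1.17.1). Sums of markers are sums of 2 to the power of the log2 value. All tests were two-sided. Alternatives were neqc (offset 16), median scaling (values under 1 set to 1), other filters, mean of probes and other blocks. Each array was also left out and, added later, slide 9. The number of arrays limits the precision. Animals are separate per the labels.

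Named were the 3 members, called members of each gene list, the remaining bombesin-like and CCN genes, and the 5 genes closest to each member by Pearson's r. The members and the lists were chosen with earlier results of these data known. Other genes or animals are said to have been picked after their values were seen where this holds.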

Additional observations from a re-analysis of the deposited data

Results flagged for a closer look

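Of 36 groups of 4 to 9 arrays (3 genes, 12 groups), 4 held an array far from the rest of its group by Dixon's test at the 95% level. Chance alone gives about 1 in 20. None lay in the injected-side KA groups of days 28 and 60. Wfdc18 was low in injected-side sham replicate 5 of day 60, at 5.38. It was high in uninjected-side KA replicate 8 of day 60, at 6.64. Nmbr was low in injected-side sham replicate 4 of day 28, at 5.10. These 3 arrays were on slide 9, where 5 of 7 arrays had fewer probes detected (46.8% at the lowest) than any array of another slide (54.7% or more). Ccn5 was low in uninjected-side KA replicate 8 of day 7, at 4.98, where no array of the group detected the gene.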

How the results depend on the processing

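Ccn5 at day 7 on the injected side passed the limma test under all 9 alternatives that gave a value (0.91 to 3.06, adjusted p from 0.00098 to 0.0154) and in all 12 fits that left out 1 array (0.80 to 1.01, adjusted p up to 0.0391). Of the contrasts kept as tests, no other passed for Wfdc18, Nmbr or Ccn5 under any setting run. Contrasts with the injected-side KA arrays of day 28 or 60 were not kept as tests, since the genes were chosen in them. The stricter filter, which asked for 40 or more arrays below a detection p of 0.01, removed Wfdc18 and Ccn5, so it gave values for Nmbr only. The day 28 differences moved by more than 1 SD with median scaling, to 3.70 for Wfdc18, 2.65 for Nmbr and 5.15 for Ccn5, and with neqc to 2.90 for Ccn5. At day 60 median scaling gave 4.51 for Wfdc18, 3.70 for Nmbr and 3.65 for Ccn5, and neqc gave 2.83 for Nmbr. The cause was not tested. The r of Wfdc18 and Nmbr went below the threshold without the 2 farthest animals (0.75 at day 28, 0.58 at day 60), and over single left-out animals it ran from 0.84 to 0.95 at day 28 and from 0.56 to 0.91 at day 60, while r of Nmbr and Ccn5 at day 28 went to 0.93 without the 2 farthest.

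Replicate numbers are shared between groups, but both arrays of an animal carry the same number in only 6 of 40 animals, so the numbers do not mark animals. Deviations of same-numbered KA and sham arrays correlated over all genes with r from -0.47 to 0.35 in 28 pairs, 7 of them above 0.1, and the own number was the closest in 4, so the arrays share only a number. With the replicate block, Ccn5 at day 7 was 0.98, and the injected-side differences were 1.99, 1.14 and 2.24 at day 28 and 2.48, 2.23 and 1.39 at day 60 for Wfdc18, Nmbr and Ccn5. No call of a member changed. Counts of all genes passing at days 7, 28 and 60 went from 1186 to 1145, 663 to 895 and 513 to 548 on the injected side and from 167 to 196, 11 to 3 and 6 to 8 on the uninjected side. They went from 3 to 1 for the difference between sides at day 7 and from 0 to 1 for uninjected-side day 60 minus day 7.

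Counts of list genes passing, without the members, went with median scaling from 3 to 1 (Gq, day 7), from 1 to 0 (Wnt targets, day 7) and from 1 to 0 (CCN, day 28). The last was also 0 with no filter, with the stricter filter and with the mean of probes. The stricter filter, which removed Wfdc17 and Ccn1, gave 0 for WAP at day 7 and for CCN at day 7, and 1 in place of 2 for CCN at day 60. Leaving out single arrays, chosen after seeing the data, gave 0 to 1 for Gq at day 28, CCN at day 28 and Wnt targets at day 7, and 1 to 2 for CCN at day 60. Leaving out slide 9, also chosen after seeing the data, gave 0 for Gq and for CCN at day 28, 1 for CCN at day 60 and 2 for Wnt targets at day 7. Counts of all genes passing went on the injected side from 1186 to 780 (day 7) and from 513 to 336 (day 60) with median scaling and to 788 (day 60) with the slide as block. Without slide 9 they were 290 at day 28 and 306 at day 60, and over single left-out arrays they ran from 828 to 1477 at day 7 and from 401 to 859 at day 28, and fell to 284 at day 60 without sham replicate 5. On the uninjected side they ran from 0 to 219 at day 7 (167 in the fit reported), 2 to 202 at day 28 (11; 202 without slide 9) and 0 to 8 at day 60 (6), and over single left-out arrays from 80 to 216, 0 to 207 and 3 to 9. The day 28 extremes came without uninjected-side sham replicate 3 (0) and 4 (207). For the difference between sides at day 7 they ran from 0 to 4, and from 0 to 106 over left-out arrays (106 without injected-side KA replicate 8). For uninjected-side day 28 and day 60 minus day 7, left-out arrays gave 0 to 33 and 0 to 17. Signal over background sets a limit on the uninjected side, where Ccn5 was detected on 2 of 40 arrays.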
